A study of Mus musculus with 6 samples.

Results

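The serpins are a superfamily of proteins that mostly inhibit serine proteases, and 62 genes with a Serpin symbol were present in all 6 count tables of mouse liver progenitor-like cells (LPCs), among 20571 gene symbols shared by the tables. The members were chosen by symbol alone and grouped by the clade letter that follows Serpin in the name, without regard to level. LPCs are proliferating cells grown out of adult liver, and their polyadenylated RNA had been sequenced in 3 groups of 2 libraries. Bec_LPCs were grown in matrigel from intrahepatic bile ducts of WT mice, passaged, and sorted for Epcam. Hep_LPCs were derived from hepatocytes of ROSA26tdTomato mice given AAV8-TBG-Cre, a virus whose promoter is active in hepatocytes. NPC_LPCs came from AlbCreERT/R26GFP mice, whose Cre is driven by the albumin promoter, and grew from non-parenchymal cells, that is, from all liver cells but hepatocytes. All mice were C57BL/6 aged 6 to 8 weeks, and all cells were cultured in Transition and Expansion Medium (TEM).

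A serpin inhibitor works by offering an exposed loop as bait, and the protease that cuts the loop is trapped as the serpin changes shape around it. The liver is the main source of the serpins of blood plasma, among them alpha-1-antitrypsin, antithrombin and heparin cofactor II, which hepatocytes secrete. Clade B serpins mostly stay inside the cell, clade E serpins act on proteases outside it, and some members, such as the collagen chaperone Serpinh1, inhibit no protease.

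The LPCs used few of the 62 genes. No read was counted in any library for 16 members, at most 3 reads in each library were counted for 27 (a group that includes those 16), and 45 stayed under 1 CPM in every library. CPM is the usual unit of reads scaled to library size, here with sizes corrected by TMM, a method that sets the libraries on a common scale from the bulk of their genes. Among the members that reached a mean of at least 10 CPM in some group were Serpine2, Serpinh1, Serpinb6a, Serpinb6b, Serpinb8, Serpinb9, Serpinb9b and Serpind1. With values in order of replicate number here and below, the summed level of clade B was 512 and 503 CPM in Bec_LPCs, 771 and 1248 CPM in Hep_LPCs, and 1051 and 723 CPM in NPC_LPCs, so both Bec_LPCs libraries were below the other 4. Clade H is Serpinh1 alone, and its level ran between 0.462 CPM in NPC_LPCs replicate 1 and 610.0 CPM in Bec_LPCs replicate 1. Clades A, C, D, F, G and I each stayed at or below 23.7 CPM in every library.

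**Figure D1:**
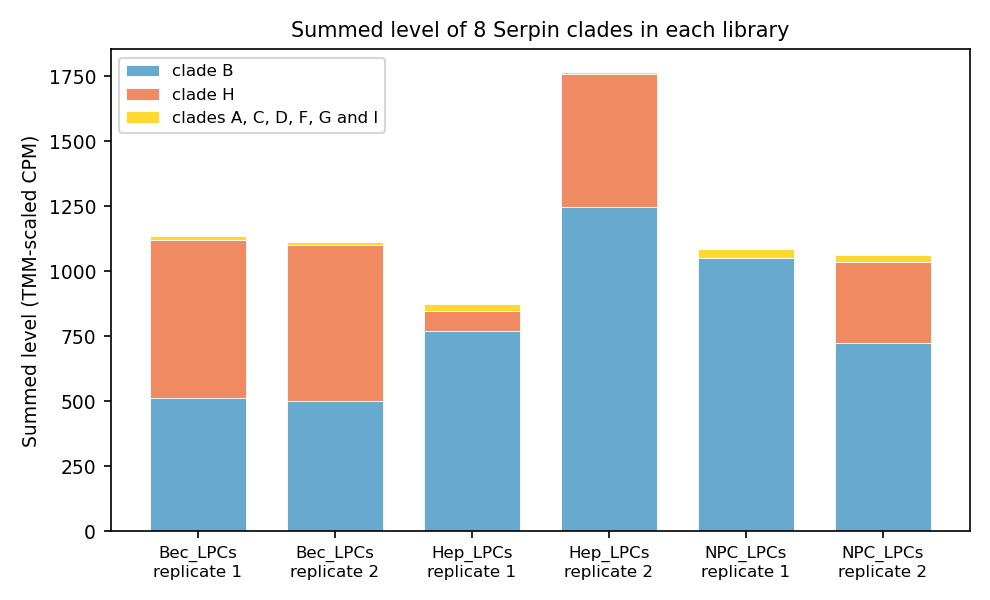
Stacked bars give the summed level of the Serpin genes of clades B, H, A, C, D, F, G and I in each of the 6 libraries, in TMM-scaled CPM. Clade B ran between 503 CPM in Bec_LPCs replicate 2 and 1248 CPM in Hep_LPCs replicate 2, and the clade H segment is too thin to see in NPC_LPCs replicate 1.

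The depth of the libraries was 22985844 and 22634867 counts in Bec_LPCs, 18123118 and 17575998 in Hep_LPCs, and 17919947 and 20625957 in NPC_LPCs. At these depths 3 reads correspond to 0.127 to 0.178 CPM, and intervals and floors below cover counting error only. The chi-square per degree of freedom between the replicates of a group, over all genes, was 5.52 in Bec_LPCs, 92.5 in Hep_LPCs and 111 in NPC_LPCs. Nothing in the labels ties replicates to separate cultures or animals, so the spread behind the p-values may not cover that between animals. One library stood apart in a Y-linked gene: Ddx3y had 1 read in Hep_LPCs replicate 2 and 1032 reads in Hep_LPCs replicate 1, against 1431 to 2370 in the other 4 libraries. Fold changes below are log2 values ± SE from edgeR's quasi-likelihood test with Benjamini-Hochberg adjustment over all genes tested, and a gene is called at an adjusted p under 0.05. The Bec_LPCs count tables differ in layout from the other 4, so in both comparisons of Bec_LPCs the cell source, mouse line, matrigel and sort cannot be told apart from a difference in counting.

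The hepatocyte character of the cells bears on a family that hepatocytes secrete. Of 8 hepatocyte markers, Cyp3a11 and Tat, both metabolic enzymes of mature hepatocytes, had 0 reads in all 6 libraries. Alb, which encodes albumin, was at 0.971 and 0.429 CPM in Bec_LPCs, 2.40 and 0.119 CPM in Hep_LPCs, and 0.116 and 0.153 CPM in NPC_LPCs. Hnf4a, a transcription factor of hepatocyte identity, made up most of the list's summed level, with 125.5 and 104 CPM in Bec_LPCs, 248 and 263 CPM in Hep_LPCs, and 28.8 and 51.2 CPM in NPC_LPCs. Biliary markers were read in every library, their summed level being 4210 and 3548 CPM in Bec_LPCs, 5031 and 2332 CPM in Hep_LPCs, and 10000 and 4911 CPM in NPC_LPCs. Spp1, which encodes osteopontin, made up 9410 and 4314 CPM of the sum in NPC_LPCs, and other markers ran the other way. Epcam, an adhesion protein of biliary cells, was at 59.0 and 65.7 CPM in Bec_LPCs, 0.351 and 1.84 CPM in Hep_LPCs, and 0.116 and 0.610 CPM in NPC_LPCs. Bec_LPCs had been sorted for Epcam, so its level there is no independent marker of biliary character. The keratin Krt7 was at 298 and 365 CPM in Bec_LPCs, 109 and 174 CPM in Hep_LPCs, and 1.501 and 17.7 CPM in NPC_LPCs.

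Serpine2, of clade E, encodes protease nexin-1, an inhibitor of thrombin and urokinase at the cell surface, and lies on chromosome 1 (79794197 to 79861180 in mm10). It was at 241 and 219.7 CPM in Bec_LPCs, 196 and 199.9 CPM in Hep_LPCs, and 310.1 and 359.7 CPM in NPC_LPCs. Both NPC_LPCs libraries were above the other 4, and both Bec_LPCs libraries were above both Hep_LPCs libraries. The log2 fold changes were -0.78 ± 0.24 in Hep_LPCs over NPC_LPCs (adjusted p = 0.148), -0.54 ± 0.16 in Bec_LPCs over NPC_LPCs (adjusted p = 0.0826) and 0.22 ± 0.16 in Bec_LPCs over Hep_LPCs (adjusted p = 0.324), none of them a call. The comparisons with NPC_LPCs share the NPC_LPCs libraries, so they are not separate evidence for the order. Serpine3, of the same clade, had at most 3 reads in any library.

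The proteases and receptors of plasminogen activation, on which Serpine2 and Serpini1 act, were largely present. Plat, the tissue plasminogen activator, was at 182 and 187.5 CPM in Bec_LPCs, 189 and 111 CPM in Hep_LPCs, and 192 and 249.6 CPM in NPC_LPCs. Plau, urokinase, was at 124 and 148 CPM in Bec_LPCs, 21.5 and 42.5 CPM in Hep_LPCs, and 10.2 and 119 CPM in NPC_LPCs, so the NPC_LPCs replicates stood on either side of Hep_LPCs. Plaur, the urokinase receptor, was between 164 and 334 CPM in every library, whereas Plg, plasminogen itself, and Vtn, the adhesive matrix protein vitronectin, had 0 reads in all 6. Of 14 genes listed for plasminogen activation, 12 were tested in each comparison, and their counts of calls are to be read beside the shares of all genes called, which were 0.781% in Hep_LPCs over NPC_LPCs, 11.3% in Bec_LPCs over NPC_LPCs and 33.4% in Bec_LPCs over Hep_LPCs. None was called in Hep_LPCs over NPC_LPCs and 1 was called in Bec_LPCs over NPC_LPCs, namely Tgfb1, a growth factor that induces matrix genes in many cells, which fell by 1.49 ± 0.23 (adjusted p = 0.0194). In Bec_LPCs over Hep_LPCs, 1 was called higher and 2 lower. Thbs1, the matrix protein thrombospondin-1, rose by 2.44 ± 0.51 (adjusted p = 0.0184), and Anxa2 and S100a10, which together form a plasminogen receptor, changed by -0.80 ± 0.19 and -0.85 ± 0.24 (adjusted p = 0.0254 and 0.041).

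**Figure D2:**
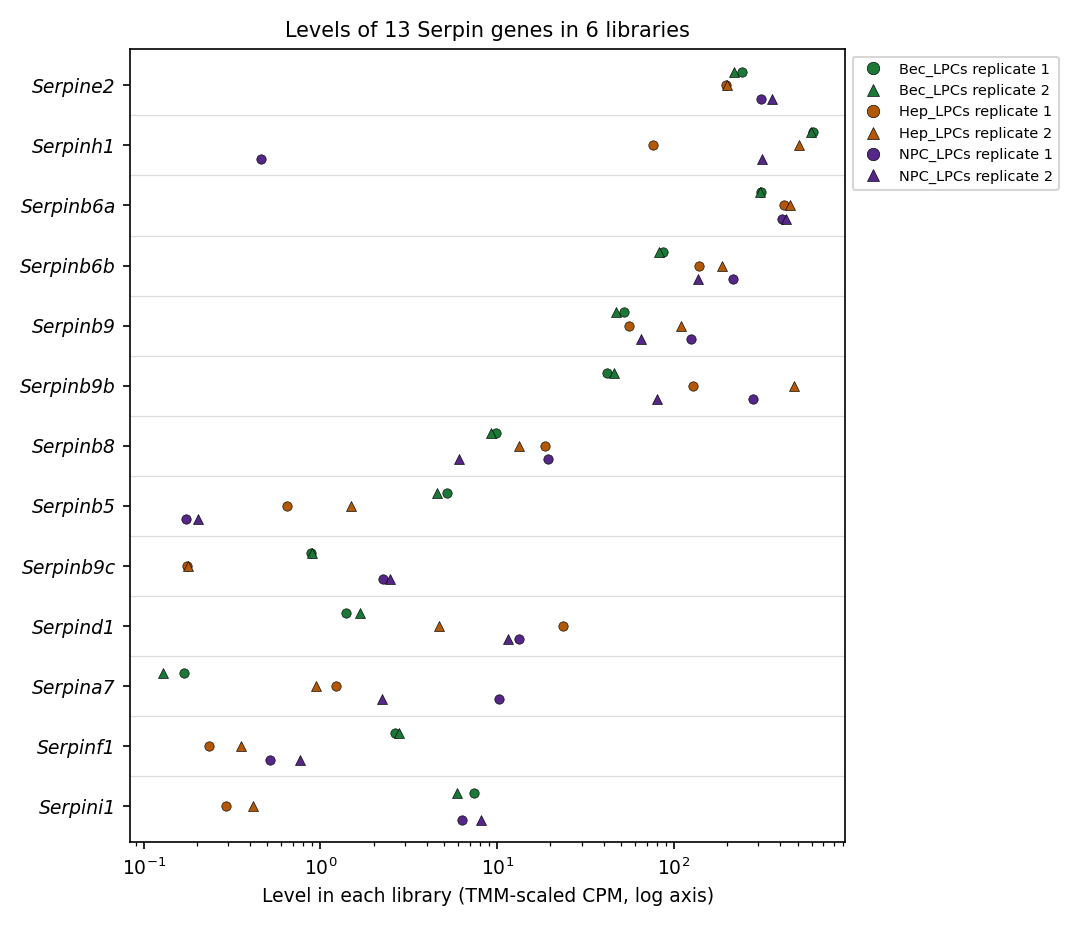
Each point is the level of a Serpin gene in 1 library, in TMM-scaled CPM on a log axis, for 13 members, each of which reached a mean of 10 CPM in a group or was called in a comparison. The groups are coloured and the replicates have different shapes. Serpinh1 in NPC_LPCs replicate 1 lies far to the left of its other 5 points, and the Bec_LPCs replicates lie close together for each gene.

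Serpinh1 varied more between replicates than any other abundant member. It encodes HSP47, a chaperone of the endoplasmic reticulum that binds procollagen and inhibits no protease, and lies on the minus strand of chromosome 7 (99345376 to 99353239 in mm10). It was at 610.0 and 598 CPM in Bec_LPCs, 75.6 and 509 CPM in Hep_LPCs, and 0.462 and 314 CPM in NPC_LPCs. The low value of NPC_LPCs replicate 1 rests on 8 reads, against 6182 reads in replicate 2, and the FPKM values that the authors deposited show the same gap, with 28.7 and 200.2 in Hep_LPCs and 0.191 and 119.8 in NPC_LPCs. Both Bec_LPCs libraries lay above the other 4. No comparison called the gene: the log2 fold change was 0.85 ± 2.11 in Hep_LPCs over NPC_LPCs (adjusted p = 0.846), 1.94 ± 1.98 in Bec_LPCs over NPC_LPCs (adjusted p = 0.545) and 1.05 ± 1.93 in Bec_LPCs over Hep_LPCs (adjusted p = 0.697). Without NPC_LPCs replicate 1 the first of these was -0.12 (adjusted p = 0.97) and the second 0.90 (adjusted p = 0.627), and without NPC_LPCs replicate 2 they were 9.28 (adjusted p = 0.154) and 10.33 (adjusted p = 0.0513). Without Hep_LPCs replicate 1 the third was 0.25 (adjusted p = 0.948), and without Hep_LPCs replicate 2 it was 2.997 (adjusted p = 0.465).

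The gap in NPC_LPCs replicate 1 was not shared by the genes next to Serpinh1, which were chosen after its values were seen. Gdpd5, on one side, was at 69.4 and 82.3 CPM in NPC_LPCs, and Map6, on the other, at 55.8 and 54.9 CPM. The sequence of the 250 bases before the Serpinh1 start is shown because the level of this gene set the libraries furthest apart. It comes from RefSeq on GRCm38.p6, is written 5′ to 3′, and has in capitals the only match in the window to any of 5 motifs searched on both strands, a GC box (GGGCGG) that begins 37 bases before the start.
Serpinh1, chr7:99353240-99353489, minus strand: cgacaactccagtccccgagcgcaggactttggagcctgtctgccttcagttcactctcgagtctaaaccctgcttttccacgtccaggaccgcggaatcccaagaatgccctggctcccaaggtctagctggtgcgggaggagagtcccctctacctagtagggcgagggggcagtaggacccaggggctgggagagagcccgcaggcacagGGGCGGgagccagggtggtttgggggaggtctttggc
The 5 motifs were the heat shock element GAANNTTC, the GC box GGGCGG, the CCAAT box CCAAT, the TATA box TATAAA and the AP-1 site TGANTCA, searched in windows of 300 bases of which 50 follow the start. Among 32851 promoter windows of all genes, 35.7% held GGGCGG and 7.86% held GAANNTTC. Windows were found for 53 of the 62 members, and of their 62 windows 8 held GGGCGG and 6 held GAANNTTC. A match describes letters and not a bound site.

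The collagens that Serpinh1 serves differed among themselves in NPC_LPCs replicate 1, the library with 8 reads of Serpinh1. Col4a1, a chain of basement membrane collagen, was at 1263 and 1361 CPM in Bec_LPCs, 288 and 472 CPM in Hep_LPCs, and 1047 and 2158 CPM in NPC_LPCs. Its level in NPC_LPCs replicate 1 was therefore above both Hep_LPCs libraries and below NPC_LPCs replicate 2. The fibrillar collagens Col1a2, Col3a1 and Col5a2 had 0 reads in NPC_LPCs replicate 1, against 28, 21 and 25 reads in replicate 2, and Col1a1 gave 2.89 and 12.1 CPM in the NPC_LPCs libraries. Col5a1 went the other way, with 144 and 55.0 CPM. P4hb, a subunit of the enzyme that hydroxylates prolines of procollagen, was at 1102 and 997 CPM in NPC_LPCs, and Sparc, a collagen-binding matrix protein, at 649.5 and 669 CPM. Fkbp10, a prolyl isomerase that acts with HSP47 on procollagen, was at 15.3 and 16.6 CPM in Bec_LPCs, 6.44 and 0.237 CPM in Hep_LPCs, and 0.116 and 0.254 CPM in NPC_LPCs. It too was highest in both Bec_LPCs libraries, but it was low in both NPC_LPCs libraries.

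**Figure D3:**
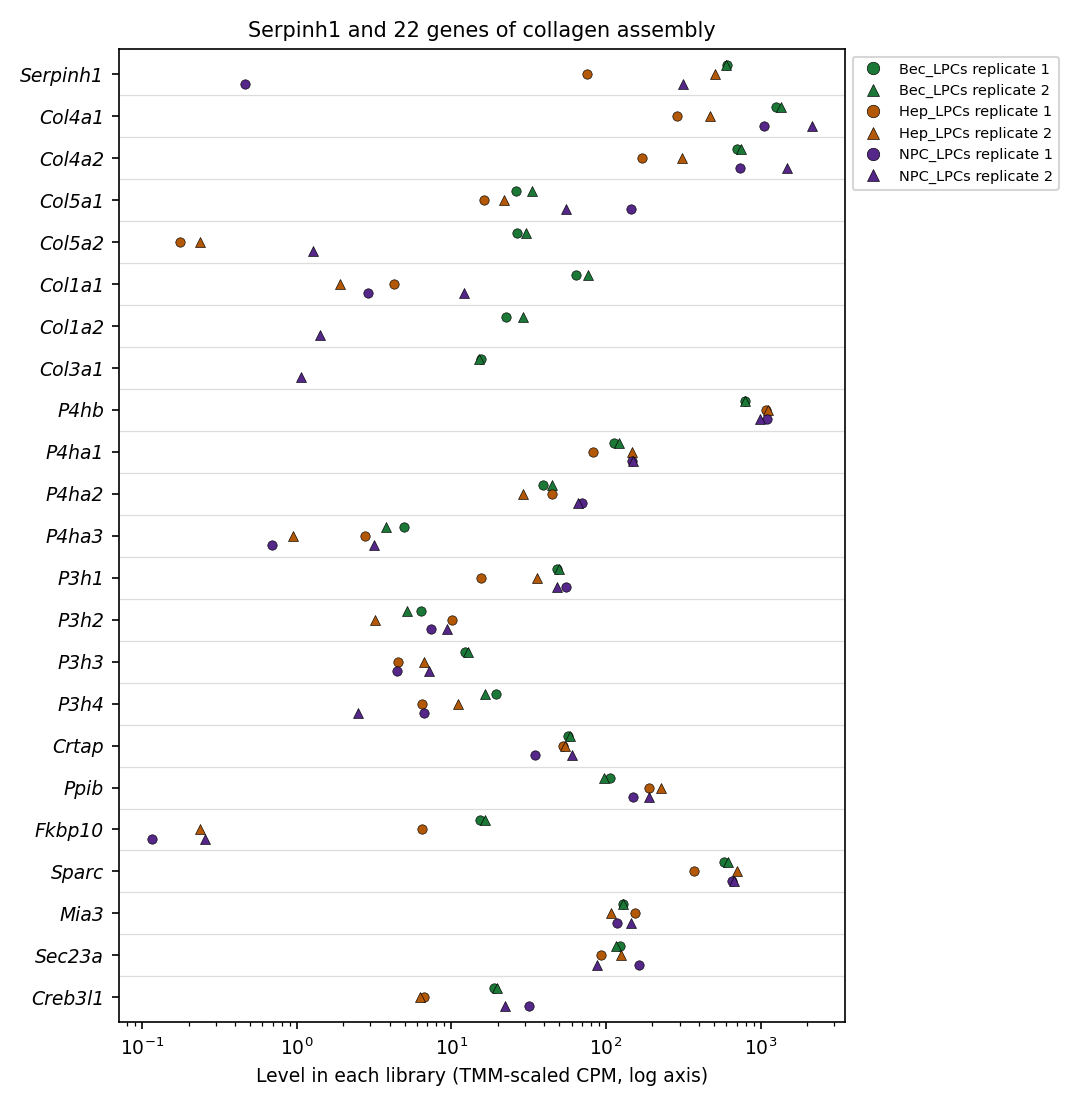
Points give the level of Serpinh1 and of 22 genes of collagen assembly in each library, in TMM-scaled CPM on a log axis, coloured by group and shaped by replicate. Libraries with 0 reads of a gene have no point, as for Col1a2 and Col3a1 in both Hep_LPCs libraries. Serpinh1 in NPC_LPCs replicate 1 is at 0.462 CPM while Col4a1 in that library is at 1047 CPM.

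Of the 22 listed collagen partners, none of the 18 tested was called in Hep_LPCs over NPC_LPCs, and Col1a1 and Col5a2 were called higher, with none lower, among 22 tested in Bec_LPCs over NPC_LPCs, where 11.3% of all genes were called. In Bec_LPCs over Hep_LPCs, 7 were called higher and 1 lower, where 16.1% of all genes were called higher and 17.2% lower, 33.4% in all. The smallest adjusted p-values there belonged to Creb3l1, a transcription factor of collagen secretion, which rose by 1.58 ± 0.26 (adjusted p = 0.00956), to Col1a1, a chain of the fibrillar collagen of scar and stroma, which rose by 4.51 ± 0.77 (adjusted p = 0.0114), and to Col5a2, which rose by 7.07 ± 1.32 (adjusted p = 0.0139). Col1a2 had 22.8 and 29.0 CPM in Bec_LPCs and 0 reads in Hep_LPCs, so it was at least 146-fold higher when each empty library is set to 3 reads. Some markers of mesenchymal and stellate cells moved with these genes. The summed level over 8 markers, 2 of which are the collagens Col1a1 and Col3a1, was 164 and 194 CPM in Bec_LPCs, 5.56 and 3.38 CPM in Hep_LPCs, and 5.14 and 16.01 CPM in NPC_LPCs. Acta2, the actin of smooth muscle and myofibroblasts, gave 77.6 and 94.1 CPM in Bec_LPCs, 0 in both Hep_LPCs libraries, and 0 and 2.34 CPM in NPC_LPCs, while Lrat and Lum had 0 reads in all 6. Dcn, which encodes the matrix proteoglycan decorin, ran the other way, with 1 and 1 reads in Bec_LPCs, 7 and 1 reads in Hep_LPCs, and 26 and 6 reads in NPC_LPCs. The part of such cells in the collagen and serpin differences was not tested, and in bulk RNA more cells of a type cannot be told apart from more RNA per cell.

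Clade B, the intracellular serpins, held 27 members in a cluster of 16 on chromosome 13 (32842092 to 34002794 in mm10) and one of 11 on chromosome 1 (106861173 to 107610484). Within the chromosome 13 cluster 4 members reached 10 CPM in a group, and the other 12 stayed at or below 2.49 CPM in every library. Of the 4, 3 lie next to each other near one end of the cluster, and Serpinb6a lies at the other end. In the chromosome 1 cluster Serpinb8 was the only member to reach 10 CPM.

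**Figure D4:**
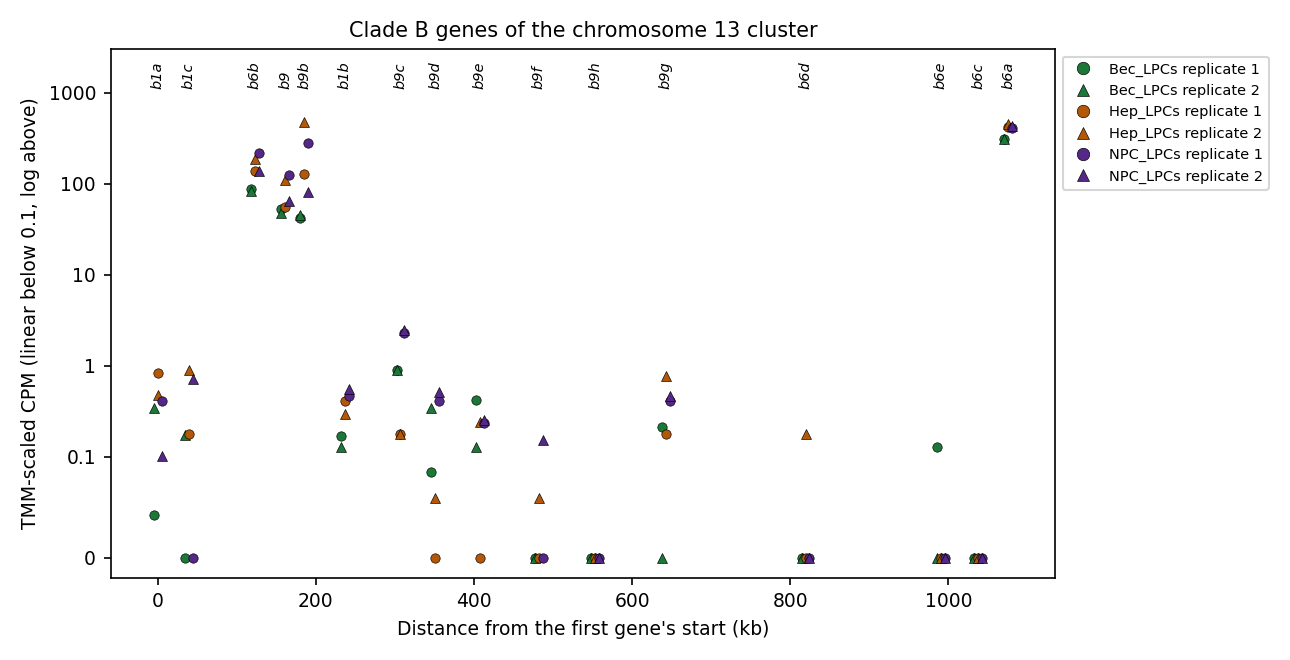
Levels of the 16 clade B genes of the chromosome 13 cluster are plotted against distance in kb from the first gene's start, on an axis of TMM-scaled CPM that is linear below 0.1 and logarithmic above. Colours give the group and shapes the replicate, and names drop the prefix Serpin. Serpinb6b, Serpinb9, Serpinb9b and Serpinb6a stand well above the other 12.

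Serpinb6a, an inhibitor of trypsin-like and granule proteases found in many tissues, was the steadiest abundant member. It was at 312 and 308.5 CPM in Bec_LPCs, 421 and 454 CPM in Hep_LPCs, and 407 and 428 CPM in NPC_LPCs. Both Bec_LPCs libraries were below the other 4, and Hep_LPCs and NPC_LPCs overlapped. It fell by 0.50 ± 0.15 in Bec_LPCs over Hep_LPCs, a call close to the threshold (adjusted p = 0.0491). In the fit with library size alone, which moves every fold change of Bec_LPCs over Hep_LPCs by 0.18, it was -0.32 and not called. Nor was it called with a filter at 10 CPM, with no filter on low counts or with the replicate number as a block. The gene shares 18.5% of its exonic bases with Nqo2 on the other strand, and no source used here says how strand was treated in counting. In Bec_LPCs over NPC_LPCs the log2 fold change of -0.43 ± 0.15 was no call (adjusted p = 0.116), nor was that of 0.05 ± 0.23 in Hep_LPCs over NPC_LPCs (adjusted p = 0.931).

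Serpinb6b, a close relative at the other end of the cluster, was at 86.2 and 82.1 CPM in Bec_LPCs, 139 and 187 CPM in Hep_LPCs, and 215 and 137 CPM in NPC_LPCs. It fell by 0.95 ± 0.27 in Bec_LPCs over Hep_LPCs (adjusted p = 0.0411), a call not made with library size alone, without Hep_LPCs replicate 1 (adjusted p = 0.0541) or without Hep_LPCs replicate 2 (adjusted p = 0.125). In Bec_LPCs over NPC_LPCs it was at -1.06 ± 0.27 (adjusted p = 0.0595), although both Bec_LPCs libraries were the lowest of the 6.

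Serpinb9 encodes an inhibitor of granzyme B, the killing protease of cytotoxic lymphocytes, and Serpinb9b is a mouse paralog whose start lies 24166 bases from that of Serpinb9. Serpinb9b was at 42.1 and 45.7 CPM in Bec_LPCs, 129 and 479 CPM in Hep_LPCs, and 279.6 and 80.1 CPM in NPC_LPCs. Hep_LPCs replicate 2 and NPC_LPCs replicate 1 were the high libraries, the replicates of each of these groups were several-fold apart, and Bec_LPCs lay below all of them. It fell by 2.79 ± 0.80 in Bec_LPCs over Hep_LPCs (adjusted p = 0.0436), and without Hep_LPCs replicate 2 the log2 fold change was -1.56 and not called (adjusted p = 0.165). It was not called with library size alone (adjusted p = 0.0512) or with limma-voom (adjusted p = 0.0532) either, nor with no filter on low counts or with the replicate number as a block. Serpinb9 was at 52.0 and 47.2 CPM in Bec_LPCs, 55.4 and 109.6 CPM in Hep_LPCs, and 125 and 65.0 CPM in NPC_LPCs. The same 2 libraries were its highest, and none of its 3 comparisons was called (adjusted p between 0.194 and 0.807). Gzmb, the granzyme that Serpinb9 inhibits, was at 0.356 CPM or less in every library, and Ptprc, which marks leukocytes, at 0.772 CPM or less. The summed level of 8 leukocyte markers was 79.9 and 75.1 CPM in Bec_LPCs, 121 and 57.0 CPM in Hep_LPCs, and 248 and 74.9 CPM in NPC_LPCs, most of it from Cd14 and Cd68. Lyz2, the lysozyme of myeloid cells, ran the other way, with 12.2 and 14.4 CPM in Bec_LPCs, 0.293 and 0.0593 CPM in Hep_LPCs, and 0.635 and 0 CPM in NPC_LPCs, and Ptprc too was highest in Bec_LPCs. The part of leukocytes in the Serpinb9 and Serpinb9b levels was not tested.

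Serpinb5, which encodes maspin, an epithelial serpin without protease inhibition that was first described in mammary cells, lies on chromosome 1 (106861173 to 106883348 in mm10). It was at 5.23 and 4.54 CPM in Bec_LPCs, 0.644 and 1.48 CPM in Hep_LPCs, and 0.173 and 0.203 CPM in NPC_LPCs. The 3 groups did not overlap. It rose by 4.65 ± 0.68 in Bec_LPCs over NPC_LPCs (adjusted p = 0.0176) and by 2.19 ± 0.58 in Bec_LPCs over Hep_LPCs (adjusted p = 0.0347). The NPC_LPCs libraries held 7 reads together against 230 in Bec_LPCs, a ratio of 25.8 with an exact 95% counting interval of 12.3 to 65.0. The first call was not made without NPC_LPCs replicate 1 (adjusted p = 0.0565), nor the second without Hep_LPCs replicate 1 (adjusted p = 0.0679). The difference between Hep_LPCs and NPC_LPCs, 2.43 ± 0.95, was no call (adjusted p = 0.211).

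Serpinb8, an inhibitor of furin, the protease that trims many precursor proteins, was at 9.79 and 9.26 CPM in Bec_LPCs, 18.7 and 13.2 CPM in Hep_LPCs, and 19.5 and 6.05 CPM in NPC_LPCs. The NPC_LPCs replicates spanned both other groups, and no comparison was called (adjusted p between 0.327 and 0.787). Serpinb9c was read at 0.886 and 0.900 CPM in Bec_LPCs, 0.176 and 0.178 CPM in Hep_LPCs, and 2.25 and 2.49 CPM in NPC_LPCs. Its call in Bec_LPCs over Hep_LPCs, a rise of 2.30 ± 0.60 (adjusted p = 0.0338), set 42 reads against 6, a ratio of 5.05 with a counting interval of 2.14 to 14.5, and was not made without Hep_LPCs replicate 1 (adjusted p = 0.0762) or Hep_LPCs replicate 2 (adjusted p = 0.065). Serpinb9c is uncertain in any case, since Gm11385 holds a copy of part of it with 100% identity and the counting could split their reads.

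Serpini1 had the clearest difference of the family. It encodes neuroserpin, an inhibitor of tissue plasminogen activator best known in neurons, and lies on chromosome 3 (75557547 to 75643495 in mm10). It was at 7.43 and 5.96 CPM in Bec_LPCs, 0.293 and 0.415 CPM in Hep_LPCs, and 6.35 and 8.13 CPM in NPC_LPCs. Both Hep_LPCs libraries, with 5 and 7 reads, were far below the other 4, and Bec_LPCs and NPC_LPCs overlapped. It rose by 4.22 ± 0.46 in Bec_LPCs over Hep_LPCs (adjusted p = 0.00359), a ratio of pooled reads of 18.9 with a counting interval of 10.7 to 37.1, and this call was made with each library left out in turn (adjusted p between 0.00568 and 0.042). In Hep_LPCs over NPC_LPCs it was at -4.35 ± 0.66, just outside the threshold (adjusted p = 0.0585), and without NPC_LPCs replicate 1 just inside it (adjusted p = 0.0499). It did not pass the test in Bec_LPCs over NPC_LPCs, at -0.11 ± 0.37 (adjusted p = 0.86).

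Pdcd10, which starts 691 bases from the Serpini1 start and is transcribed away from it, did not share its pattern. It was at 70.4 and 67.2 CPM in Bec_LPCs, 50.7 and 72.9 CPM in Hep_LPCs, and 59.5 and 58.6 CPM in NPC_LPCs, and no comparison called it (adjusted p between 0.515 and 0.943). The 250 bases before the starts of Serpini1 and Serpinf1 are shown because these members rose most among those called in Bec_LPCs over Hep_LPCs, with capitals for matches to CCAAT, the only one of the 5 motifs found in these stretches.
Serpini1, chr3:75557243-75557492, plus strand: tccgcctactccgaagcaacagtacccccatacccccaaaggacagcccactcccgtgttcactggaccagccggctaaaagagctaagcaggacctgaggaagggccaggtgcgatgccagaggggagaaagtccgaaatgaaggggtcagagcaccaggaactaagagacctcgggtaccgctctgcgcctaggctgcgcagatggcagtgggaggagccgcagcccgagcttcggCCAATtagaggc
Serpinf1, chr11:75422624-75422873, minus strand: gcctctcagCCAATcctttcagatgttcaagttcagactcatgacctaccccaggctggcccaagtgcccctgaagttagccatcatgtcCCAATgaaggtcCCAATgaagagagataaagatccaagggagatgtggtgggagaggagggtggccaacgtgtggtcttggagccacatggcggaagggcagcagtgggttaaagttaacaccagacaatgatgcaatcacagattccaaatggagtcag
The match in Serpini1 begins 12 bases before the start, and those in Serpinf1 begin 241, 160 and 148 bases before it. These starts are from RefSeq and differ from the starts in the mm10 coordinates given for both genes. CCAAT was found in 37.4% of all promoter windows and in 21 of the 62 member windows. The window of Serpini1 also holds GAANNTTC, 27 bases after the start.

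Serpinf1 encodes PEDF, a secreted serpin without protease inhibition that acts on vessels and lipid metabolism, and lies on chromosome 11 (75409769 to 75422701 in mm10). It was at 2.66 and 2.79 CPM in Bec_LPCs, 0.234 and 0.356 CPM in Hep_LPCs, and 0.520 and 0.763 CPM in NPC_LPCs. Bec_LPCs lay above the other 4 libraries without overlap. It rose by 3.18 ± 0.61 in Bec_LPCs over Hep_LPCs (adjusted p = 0.0145), with 128 reads against 10, a ratio of 9.24 and a counting interval of 4.86 to 19.7. The difference of 2.07 ± 0.56 in Bec_LPCs over NPC_LPCs was no call (adjusted p = 0.0674). The summed level of mesenchymal markers given above was also highest in the Bec_LPCs libraries, whose cells had been sorted for Epcam, an epithelial protein; the part of such cells was not tested. Of 5 genes listed as PEDF receptors, 4 were tested, and none was called in either comparison with NPC_LPCs. In Bec_LPCs over Hep_LPCs, where 33.4% of all genes were called and 17.2% were called lower, 2 were called, both lower. They were Pnpla2, a triglyceride lipase that binds PEDF, at -0.81 ± 0.18 (adjusted p = 0.0228), and Rpsa, a ribosomal protein that also serves as a laminin receptor, at -1.26 ± 0.18 (adjusted p = 0.00671). Serpinf2, the plasma inhibitor of plasmin, was under 1 CPM in every library.

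Serpind1 encodes heparin cofactor II, a thrombin inhibitor of plasma made by hepatocytes, and had the most reads among the plasma serpins reported here. It lies on chromosome 16 (17331371 to 17343575 in mm10), within the span of Pi4ka on the other strand. It was at 1.39 and 1.67 CPM in Bec_LPCs, 23.7 and 4.69 CPM in Hep_LPCs, and 13.3 and 11.5 CPM in NPC_LPCs. Bec_LPCs lay below the other 4 libraries, and Hep_LPCs stood on both sides of NPC_LPCs. It fell by 3.21 ± 0.77 in Bec_LPCs over Hep_LPCs (adjusted p = 0.0272), and fell by 1.61 without Hep_LPCs replicate 1 (adjusted p = 0.0343). With limma-voom it was -2.78 and not called (adjusted p = 0.0826). It was at -3.01 ± 0.77 and not called in Bec_LPCs over NPC_LPCs (adjusted p = 0.0608), but it was called when either Hep_LPCs library was left out of the fit (adjusted p = 0.0142 and 0.0115). F2, the thrombin precursor that Serpind1 acts on, was at 0.351 CPM or less in every library. Of 22 listed coagulation genes, 11 were tested in Hep_LPCs over NPC_LPCs and 12 in each comparison of Bec_LPCs. Only Tfpi2, a secreted inhibitor of the tissue factor pathway, was called in any of them. It was called higher in Bec_LPCs over Hep_LPCs (adjusted p = 0.0362), where 33.4% of all genes were called. Its level was 0.675 and 0.857 CPM in Bec_LPCs, against 0 reads in Hep_LPCs, at least 4.33-fold higher.

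Clade A, which holds most plasma serpins, was nearly silent. Of its 24 members, 23 lie in a cluster on chromosome 12 (103614786 to 104414329 in mm10), where none passed 2.54 CPM in any library. Summed over the clade, the level was 1.27 and 0.986 CPM in Bec_LPCs, 3.04 and 1.78 CPM in Hep_LPCs, and 14.9 and 3.56 CPM in NPC_LPCs. The alpha-1-antitrypsin genes Serpina1a to Serpina1e share near-identical stretches, so their reads could be split between them, and the highest value among them was 0.936 CPM, of Serpina1b in Hep_LPCs replicate 1. Serpina3n, an acute phase inhibitor of granule proteases, was at 2.54 and 0.813 CPM in NPC_LPCs and had 0 reads in Hep_LPCs. Its NPC_LPCs mean of 1.68 CPM was at least 9.48-fold above Hep_LPCs when each empty library is set to 3 reads. Replicate 1 made up most of that mean, so the bound does not hold for replicate 2 alone, and the difference was not called (adjusted p = 0.103).

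Serpina7, the thyroxine-binding globulin, is the only clade A member outside that cluster, on the X chromosome (139079257 to 139085236 in mm10), and the only one called. It was at 0.169 and 0.129 CPM in Bec_LPCs, 1.23 and 0.949 CPM in Hep_LPCs, and 10.3 and 2.24 CPM in NPC_LPCs. The 3 groups did not overlap, although the NPC_LPCs replicates were far apart. It fell by 5.33 ± 0.96 in Bec_LPCs over NPC_LPCs (adjusted p = 0.028). That sets 7 reads against 222, a ratio of 0.0248 with a counting interval of 0.00986 to 0.052, and without NPC_LPCs replicate 1 the log2 fold change was -3.90 (adjusted p = 0.0457). With limma-voom it was -4.79 and not called (adjusted p = 0.0652). The differences in Bec_LPCs over Hep_LPCs, -2.82 ± 0.93 (adjusted p = 0.0624), and in Hep_LPCs over NPC_LPCs, -2.52 ± 0.88 (adjusted p = 0.178), were not called.

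The remaining secreted inhibitors were at low levels. Serpinc1, antithrombin, was at 0.943 CPM or less, and 34.4% of its exonic bases overlap Zbtb37 on the other strand, so its few reads are uncertain. Serping1, the C1 inhibitor of complement, was at 1.10 and 0.472 CPM in Bec_LPCs, 0.234 and 0 CPM in Hep_LPCs, and 0.0577 and 0.153 CPM in NPC_LPCs, and had too few reads to be tested. Of the 9 listed complement genes, 3 were tested, and all 3 were called lower in Bec_LPCs over NPC_LPCs, with 2 of them lower in Bec_LPCs over Hep_LPCs as well, where 6.44% and 17.2% of all genes were called lower. The untested C1qa, C1qb and C1qc ran the other way. They had 17 and 7, 5 and 3, and 10 and 22 reads in Bec_LPCs, against at most 1 read in any other library. Untested too, C1rb and Masp2 were lower in Bec_LPCs than in NPC_LPCs, with at most 6 reads in any library, and C1s2 overlapped. C1ra, a protease of the C1 complex that Serping1 inhibits, fell by 5.32 ± 0.70 in Bec_LPCs over NPC_LPCs (adjusted p = 0.0138) and fell by 3.66 ± 0.67 in Bec_LPCs over Hep_LPCs (adjusted p = 0.0132). Masp1, a protease of the lectin pathway and another target of the C1 inhibitor, fell by 1.26 ± 0.23 and fell by 1.70 ± 0.24 in the same comparisons (adjusted p = 0.0296 and 0.0066), with 91.4 and 86.9 CPM in Bec_LPCs, 317 and 262.5 CPM in Hep_LPCs, and 173 and 253 CPM in NPC_LPCs. C1s1, which C1ra activates, fell by 8.04 ± 1.67 in Bec_LPCs over NPC_LPCs (adjusted p = 0.0388). The size of that fall is uncertain, since C1s1 had only 5 and 1 reads in Bec_LPCs and its NPC_LPCs replicates were far apart, at 61.7 and 8.95 CPM. These comparisons share the Bec_LPCs libraries.

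Levels can be compared between members only per length. Per kb of exon, Serpinh1 was at 249.7 and 245 CPM per kb in Bec_LPCs, above Serpinb6a at 57.7 and 57.0 and Serpinb6b at 38.1 and 36.3. In Hep_LPCs the order of Serpinh1 and Serpinb6a on this scale turned with the replicate, with Serpinh1 at 31.0 and 208 CPM per kb and Serpinb6a at 77.9 and 84.0. It turned likewise in NPC_LPCs, with Serpinh1 at 0.189 and 129 CPM per kb and Serpinb6a at 75.3 and 79.2. The authors' FPKM exist only for these 4 libraries and rest on the authors' own gene lengths. On that scale Serpinb6a was at 149.7 and 174 FPKM in Hep_LPCs, and at 152 and 160.5 FPKM in NPC_LPCs. Serpinb9b was at 60.8 and 214.6 FPKM in Hep_LPCs, and at 126 and 39.3 FPKM in NPC_LPCs. Serpine2 was at 72.9 and 73.2 FPKM in Hep_LPCs, and at 114 and 138 FPKM in NPC_LPCs. By FPKM Serpine2 was thus above Serpinb6b, at 43.5 and 58.6 FPKM in Hep_LPCs and 66.7 and 45.3 FPKM in NPC_LPCs, whereas per kb of the exon length used here it was below Serpinb6b in all 6 libraries.

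Counted over the family, 19 of the 62 members had enough reads for a test in the fit of all 6 libraries and 17 in the fit of Hep_LPCs and NPC_LPCs. Of the 17, none was called in Hep_LPCs over NPC_LPCs by edgeR, where 0.781% of all 12159 tested genes were called. Without adjustment 8 of the 17 had an edgeR p under 0.05, a larger share than the 22.2% of all genes. DESeq2's Wald test called 4 of these members, also a larger share than the 12.3% of all genes, and limma-voom no member and 0.0411% of all genes. In Bec_LPCs over NPC_LPCs, 2 of 19 were called, Serpinb5 higher and Serpina7 lower, which is 10.5% of the tested members where the background over all 12867 tested genes was 11.3%, with 4.89% up and 6.44% down. In Bec_LPCs over Hep_LPCs, 8 of 19 were called, Serpinb5, Serpinb9c, Serpinf1 and Serpini1 higher and Serpinb6a, Serpinb6b, Serpinb9b and Serpind1 lower, which is 42.1% of the tested members where 33.4% of all genes were called, with 16.1% up and 17.2% down. The family's shares of these adjusted calls in both Bec_LPCs comparisons are thus near those of all genes. Without adjustment, 11 of 19 members had an edgeR p under 0.05 in Bec_LPCs over NPC_LPCs, a larger share than the 31.5% of all genes. In Bec_LPCs over Hep_LPCs it was 9 of 19, beside 47.3% of all genes. The libraries of the groups did not overlap for 9 of 17 members in Hep_LPCs over NPC_LPCs (all genes 56.6%), 15 of 19 in Bec_LPCs over NPC_LPCs (all genes 70.0%) and 15 of 19 in Bec_LPCs over Hep_LPCs (all genes 77.6%). The median log2 fold change of the tested members was 0.05, -0.54 and -0.24 in these comparisons in turn, beside 0, 0.01 and 0.03 over all genes.

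**Figure D5:**
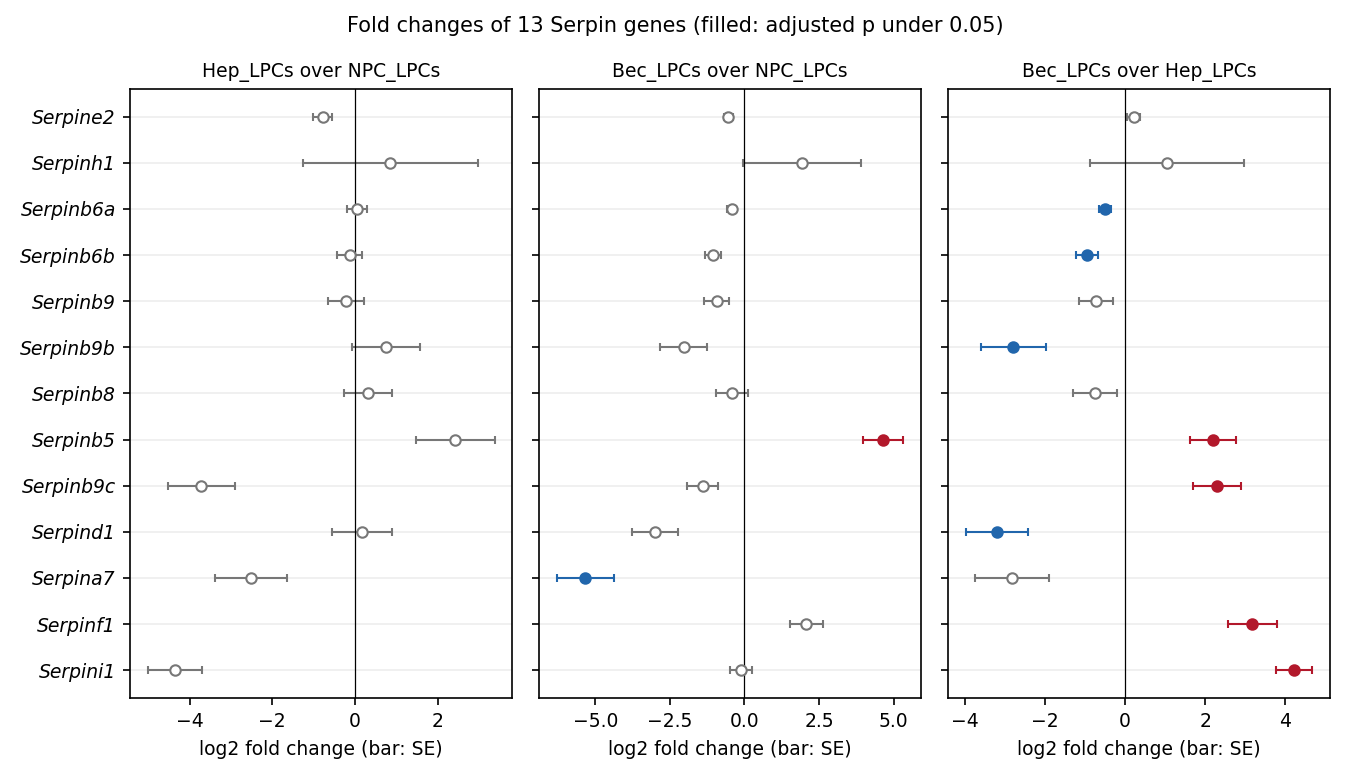
Points give the log2 fold change of 13 Serpin genes in the 3 comparisons, with bars for the SE, filled where the adjusted p is under 0.05 (red higher, blue lower in the group named first); the 3 panels have their own scales. Serpinf1 is absent from the panel of Hep_LPCs over NPC_LPCs because it had too few reads there. No point is filled in that panel, 2 are filled in Bec_LPCs over NPC_LPCs and 8 in Bec_LPCs over Hep_LPCs.

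The calls of Bec_LPCs rest on both of its libraries. Without Bec_LPCs replicate 1 or 2, none of the members was called in Bec_LPCs over NPC_LPCs, where Serpinb5 then had adjusted p = 0.175 and 0.153 and Serpina7 0.209 and 0.229. In Bec_LPCs over Hep_LPCs Serpini1 alone was then still called, and the other 7 had adjusted p between 0.13 and 0.333. In those fits the lone Bec_LPCs library is taken to vary like the other groups, and the calls over all genes also dropped, to 115 and 117 in Bec_LPCs over NPC_LPCs and to 491 and 489 in Bec_LPCs over Hep_LPCs.

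Proteases and other inhibitors outside the family gave calls in both Bec_LPCs comparisons and none in Hep_LPCs over NPC_LPCs, and over all genes the shares called were 33.4% in Bec_LPCs over Hep_LPCs, 11.3% in Bec_LPCs over NPC_LPCs and 0.781% in Hep_LPCs over NPC_LPCs. Of 18 listed elastase, granzyme, lysosomal and apoptotic proteases, 10 were tested in the fit of all 6 libraries, and 1 was called higher and 3 lower in Bec_LPCs over NPC_LPCs, and 2 higher and 3 lower in Bec_LPCs over Hep_LPCs. Casp8, an initiator of apoptosis, fell by 0.89 ± 0.15 in Bec_LPCs over Hep_LPCs (adjusted p = 0.00998), and Ctsz, a lysosomal cathepsin, fell by 1.42 ± 0.27 (adjusted p = 0.0141) there and fell by 1.31 ± 0.27 in Bec_LPCs over NPC_LPCs (adjusted p = 0.0371). Elane, Ctsg and Gzma, proteases of neutrophils and lymphocytes that serpins inhibit, had 0 reads in all 6 libraries. Of 17 listed epithelial serine proteases, 12 were tested in that fit, with 2 called higher in Bec_LPCs over NPC_LPCs, and 3 higher and 2 lower in Bec_LPCs over Hep_LPCs. Hpn, the membrane protease hepsin, rose by 4.60 ± 0.76 in Bec_LPCs over Hep_LPCs (adjusted p = 0.0105) and by 4.32 ± 0.75 in Bec_LPCs over NPC_LPCs (adjusted p = 0.0256). Of 23 other antiproteases, 14 were tested, with 1 called higher in Bec_LPCs over NPC_LPCs and 4 higher in Bec_LPCs over Hep_LPCs. Ambp, the precursor of the inhibitor bikunin, was at 23.8 and 17.7 CPM in Bec_LPCs, 0.293 and 1.13 CPM in Hep_LPCs, and 0.173 and 0.0508 CPM in NPC_LPCs. It rose by 7.49 ± 0.86 in Bec_LPCs over NPC_LPCs (adjusted p = 0.00944) and by 4.86 ± 0.71 in Bec_LPCs over Hep_LPCs (adjusted p = 0.00759). Spint1, an inhibitor of membrane serine proteases including hepsin, rose by 4.73 ± 0.90 in Bec_LPCs over Hep_LPCs (adjusted p = 0.0146), with 27.3 and 32.4 CPM in Bec_LPCs and 0.410 and 1.84 CPM in Hep_LPCs.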

How the data were processed

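Polyadenylated RNA was sequenced in paired-end mode from libraries made with a stranded kit, per the labels' protocols. The submitters' processing notes name the build mm10 and the tools Trimmomatic, HISAT2, HTSeq, Cufflinks and DESeq; no source used here gives their versions, settings or annotation. The authors deposited whole-number counts per gene symbol for each library, and FPKM beside them for Hep_LPCs and NPC_LPCs, per the file headers. Rows without a name (at most 0.000191% of a library) were left out.

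Older symbols were updated with RefSeq synonyms, which adds Serpinb9h to the 61 members found as deposited. Serpinb10 was not analysed here. Samples were grouped by title. One fit held the 4 Hep_LPCs and NPC_LPCs libraries, and a second, for the comparisons of Bec_LPCs, held all 6, with filterByExpr, TMM and edgeR's robust quasi-likelihood test, two-sided (edgeR 4.0.16, limma 3.58.1, R 4.3.3). The code was tested on simulated data. The SE was taken as the size of a fold change over the root of its F statistic. Levels are from the fit of all 6. Coordinates are from GENCODE M21, overlaps from bedtools 2.31.1 and copies (at least 95% identity over 200 bases) from minimap2 2.31-r1302.

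Members with a mean of at least 10 CPM in a group or a call were named, except 1 that is not reported here, and of each partner list the targets or receptors of a named member and at most 3 called genes by adjusted p. The members were taken by symbol alone and the lists were fixed, both with earlier results of these data known. Alternatives were other scalings, filters, sets of libraries, the replicate number as a block, DESeq2 1.42.0, limma-voom, limma on log2(FPKM + 1), symbols as deposited, genes free of overlaps and copies, and each library left out.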

Additional observations from a re-analysis of the deposited data

How the results depend on the processing

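The count of members called in Hep_LPCs over NPC_LPCs was 0, and it became 3 with all 6 libraries in the fit, 4 with DESeq2's Wald test, and 1 with limma on log2(FPKM + 1) or with no filter on low counts. With a library left out it ran between 0 and 1. In Bec_LPCs over NPC_LPCs the count was 2, and it became 0 with a filter at 10 CPM, which left 9 members to test, 8 with DESeq2's Wald test, and 4 with only the compared groups in the fit. With a library left out it ran between 0 and 3. In Bec_LPCs over Hep_LPCs the count was 8, and it became 3 with the filter at 10 CPM, 5 with library size alone, and 3 with the replicate number as a block. With a library left out it ran between 1 and 9. Calls over all genes moved as well. In Hep_LPCs over NPC_LPCs there were 1499 with DESeq2's Wald test, 1274 with all 6 libraries in the fit, 5 with limma-voom and 0 without either Hep_LPCs library. In Bec_LPCs over NPC_LPCs, DESeq2's Wald test called 22.5% of all genes, and the fit of the compared groups alone 19.6%.

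The labels do not say that a replicate number marks a shared animal or batch. The correlation of replicate differences across genes was -0.071 between Bec_LPCs and Hep_LPCs, 0.134 between Bec_LPCs and NPC_LPCs, and -0.041 between Hep_LPCs and NPC_LPCs, so the numbers were not taken as pairs. With the block, 0 members were called in Hep_LPCs over NPC_LPCs and 3 in Bec_LPCs over NPC_LPCs.

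The direction turned only for fold changes that were not called. With all libraries, Serpind1 in Hep_LPCs over NPC_LPCs was -0.10 with limma on FPKM, -0.24 with limma-voom and -0.23 with the block, and Serpini1 in Bec_LPCs over NPC_LPCs was 0.048 with library size alone. With a library left out, Hep_LPCs over NPC_LPCs ran between -0.009 and 0.11 for Serpinb6a, -0.40 and 0.23 for Serpinb6b, -0.29 and 1.38 for Serpinb8, -0.79 and 0.33 for Serpinb9, -0.49 and 1.90 for Serpinb9b, -1.41 and 0.92 for Serpind1, and -1.10 and 9.28 for Serpinh1. Likewise Bec_LPCs over NPC_LPCs ran between -1.03 and 0.61 for Serpinb8 and between -0.33 and 0.076 for Serpini1. The causes of these changes were not tested. Of 576 recomputed fold changes, 495 kept direction and side of the threshold, 40 lost a call (26 of them with a library left out), 24 gained one and 17 turned. Members with under 10 reads in a library are limited by depth.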
